A study of Homo sapiens with 12 samples.

Results

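The clustered protocadherins are the genes of the alpha, beta and gamma clusters on chromosome 5. They were taken here as every symbol of the PCDHA, PCDHAC, PCDHB, PCDHGA, PCDHGB and PCDHGC series in the deposited tables. The rule found 53 genes among 26372 symbols, of which 15 were alpha, 16 beta and 22 gamma genes. The data are RNA sequencing of polyadenylated transcripts from HCT116, a human colorectal carcinoma line. KO cells carried a knockout of the histone demethylase KDM3A, and WT cells were wild type. Both genotypes were sampled as mock cells in normal medium, as starved cells without serum, and as refed cells given FBS after 24 h without serum. The labels list 12 samples, 2 per group, but each of the 6 groups has 1 deposited column that is named for the group and not for a replicate. Each group therefore gave 1 value, no spread between replicates could be estimated, and whether the KO cells are 1 clone is not given in the labels.

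Clustered protocadherins are cadherin-type adhesion proteins of the cell surface that bind copies of themselves on neighbouring cells. In neurons, each cell uses its own small combination of them as an identity label. In the alpha and gamma clusters each variable first exon has its own promoter and is spliced to constant exons shared by the whole cluster, whereas beta genes have a single coding exon. Promoter choice uses CTCF, cohesin and distant enhancers, and unused promoters carry DNA methylation and histone H3 lysine 9 methylation. KDM3A removes methyl groups from that lysine. PCDHAC1, PCDHAC2 and the PCDHGC genes are the C-type genes, which lie at the ends of the alpha and gamma clusters and are used broadly in mouse neurons rather than by random choice.

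Promoter windows of RefSeq (GRCh38.p14, 250 bases before to 50 bases after the annotated start) were available for 47 of the 53 genes. The 6 windows below show the 4 members whose levels carry the results and, chosen after their values were seen, an alpha gene and a beta gene from the rest. PCDHAC2 and PCDHGA10 had the highest levels, and PCDHGC3 and PCDHGB5 were high in WT mock. All are on the plus strand, written 5′ to 3′, with capitals marking CGCT on either strand (AGCG is its reverse complement), the core of the conserved promoter element of this family.
PCDHAC2 (chr5:140966226-140966525): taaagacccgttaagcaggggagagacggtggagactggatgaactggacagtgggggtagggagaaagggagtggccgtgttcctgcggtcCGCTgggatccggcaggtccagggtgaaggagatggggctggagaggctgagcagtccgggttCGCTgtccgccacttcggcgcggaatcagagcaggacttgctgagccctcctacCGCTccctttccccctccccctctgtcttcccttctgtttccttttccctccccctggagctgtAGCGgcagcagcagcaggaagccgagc
PCDHGA10 (chr5:141412737-141413036): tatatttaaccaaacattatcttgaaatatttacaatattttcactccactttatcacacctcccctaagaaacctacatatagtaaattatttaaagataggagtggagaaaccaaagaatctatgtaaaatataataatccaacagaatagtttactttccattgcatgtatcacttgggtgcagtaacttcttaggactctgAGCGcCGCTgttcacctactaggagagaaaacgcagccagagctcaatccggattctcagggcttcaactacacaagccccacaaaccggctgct
PCDHGC3 (chr5:141475716-141476015): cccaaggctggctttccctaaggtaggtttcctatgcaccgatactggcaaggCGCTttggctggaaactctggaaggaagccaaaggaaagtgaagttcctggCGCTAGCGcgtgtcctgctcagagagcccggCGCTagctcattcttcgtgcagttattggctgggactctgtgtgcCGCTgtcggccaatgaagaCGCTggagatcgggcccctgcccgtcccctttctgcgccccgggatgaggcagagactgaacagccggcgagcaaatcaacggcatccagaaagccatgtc
PCDHGB5 (chr5:141397697-141397996): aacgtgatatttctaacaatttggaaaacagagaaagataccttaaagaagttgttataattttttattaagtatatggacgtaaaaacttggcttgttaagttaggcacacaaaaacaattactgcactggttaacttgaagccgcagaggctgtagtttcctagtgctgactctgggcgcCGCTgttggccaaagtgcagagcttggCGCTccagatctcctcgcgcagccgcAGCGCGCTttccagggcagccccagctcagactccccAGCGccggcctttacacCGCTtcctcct
PCDHA12 (chr5:140875058-140875357): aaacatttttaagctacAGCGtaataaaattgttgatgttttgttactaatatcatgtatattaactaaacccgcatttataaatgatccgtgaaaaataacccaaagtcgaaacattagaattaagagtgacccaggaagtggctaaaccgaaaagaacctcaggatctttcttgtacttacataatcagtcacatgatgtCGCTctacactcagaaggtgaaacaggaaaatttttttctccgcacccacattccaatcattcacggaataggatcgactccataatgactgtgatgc
PCDHB14 (chr5:141223093-141223392): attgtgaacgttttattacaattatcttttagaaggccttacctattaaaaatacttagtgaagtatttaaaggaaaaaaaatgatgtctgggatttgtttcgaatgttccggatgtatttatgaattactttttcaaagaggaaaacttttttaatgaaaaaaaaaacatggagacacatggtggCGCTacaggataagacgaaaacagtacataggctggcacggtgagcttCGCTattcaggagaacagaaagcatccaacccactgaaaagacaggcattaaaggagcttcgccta
The windows of PCDHGC3 and PCDHGB5 held 6 CGCT matches each, that of PCDHAC2 held 4, and those of PCDHGA10, PCDHA12 and PCDHB14 held 2 each. CGCT occurred on either strand in 46 of the 47 windows (97.9%), against 68.8% of all 27305 promoter windows in the table. The longer string CGCTGT, which contains CGCT and was chosen after these sequences were seen, occurred on either strand in 25 of 47 windows (53.2%), against 11.1% of all windows. It was found in 17 of 20 gamma windows (85%), 7 of 13 alpha windows and 1 of 14 beta windows (7.14%). In the gamma A and gamma B windows its 15 plus-strand matches lay between 39 and 199 bases before the start, with a median of 49. A CTCF core motif, CCANNAGNNGGC on either strand, matched 1 window of 47 (2.13%), that of PCDHB9, against 2.45% of all windows. These are matches of letters. A CGCT match alone does not show that a window holds the conserved element, and no match shows binding. Only 1 fixed CTCF string was searched, so a window without it cannot be said to lack a CTCF site.

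KDM3A had 3.15, 3.01 and 3.59 FPKM (fragment counts divided by gene length and by library size) in mock, starved and refed KO cells, against 41.3, 17.8 and 19.8 FPKM in WT cells, so the labels match the knocked-out gene. The WT mock column stands apart: the 16 endothelial markers summed to 90.3, 69 and 70.6 FPKM in mock, starved and refed KO cells, against 302, 57.5 and 49 FPKM in WT cells. EGFL7, which was at 84.3, 63.8 and 65.1 FPKM in KO cells, against 77.2, 52.5 and 44.2 FPKM in WT cells, made up most of every sum but that of WT mock. The other 15 summed to 5.99, 5.22 and 5.49 FPKM in KO cells, against 224, 4.96 and 4.85 FPKM in WT cells. The defining endothelial genes VWF, CDH5 and PECAM1 had 0.113, 0 and 0.0627 FPKM in KO mock, against 75.9, 25.8 and 15.5 FPKM in WT mock, and at most 0.159 FPKM in starved and refed cells. The WT mock column also lists the small nucleolar RNA SNORD81 at 593431 FPKM, against 0 in the other 5 columns. All its values sum to 1149307 FPKM, or 555876 without SNORD81, against 481036 to 629410 FPKM in the other columns. In each of KO mock and KO starved cells 4 of the 16 markers were listed at 0, and 1 in KO refed cells. The 12 epithelial markers that fit the colorectal label summed to 5629, 5037 and 6254 FPKM in mock, starved and refed KO cells, against 2773, 2341 and 2805 FPKM in WT cells, although VIL1 and CDX1 were near 0. Of the 10 measured 8 rose in KO, against 28.7% of all tested features, and 0 fell. Under median-ratio and upper-quartile rescaling 5 rose, against 12% and 10.8% of all features. Of 12 neuronal markers 8 were measured and 5 fell in KO, against 4.58% of all tested features. Under either rescaling 4 fell, and the share of all features that fell there was not counted. Among the 5 was STMN2, a tubulin-binding protein of growing axons, lower by 3.69 (adjusted p = 0.00233) on the log2 scale of the limma fit described below. STMN2, GAP43, SNAP25 and ELAVL4, all among the 5, reached 1 FPKM only in WT groups. Their values in WT alone took them past the filter, so these calls are given as a description. Of 8 fibroblast and 6 leukocyte markers 1 each was measured, and CD68 rose by 1.66 (adjusted p = 0.00373). The part of these markers in the results was not tested. The share of all symbols listed at 0 was 27.7%, 27% and 26.8% in the 3 KO columns and 24.3%, 16.3% and 16.3% in the 3 WT columns, in the order mock, starved, refed. Depth is unknown, so the part of sequencing depth in any low value was not tested.

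Most clustered protocadherins were at very low levels in every group. Only 2 of the 53 genes (3.77%) reached 1 FPKM in at least 1 group, against 13456 of 26372 symbols (51%), and 39 (73.6%) stayed below 0.1 FPKM everywhere, against 34% of all symbols. The median gene's highest value was 0.0451 FPKM, against 1.15 FPKM over all symbols. No gene was listed at 0 in all 6 groups, and 30 were at 0 in at least 1. By cluster, 13 of 15 alpha, 15 of 16 beta and 11 of 22 gamma genes stayed below 0.1 FPKM. The alpha genes PCDHA1 to PCDHA13 did so without exception, with a highest value of 0.0531 FPKM. In bulk cells, a low value cannot tell fewer expressing cells from less RNA per cell.

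**Figure D1:**
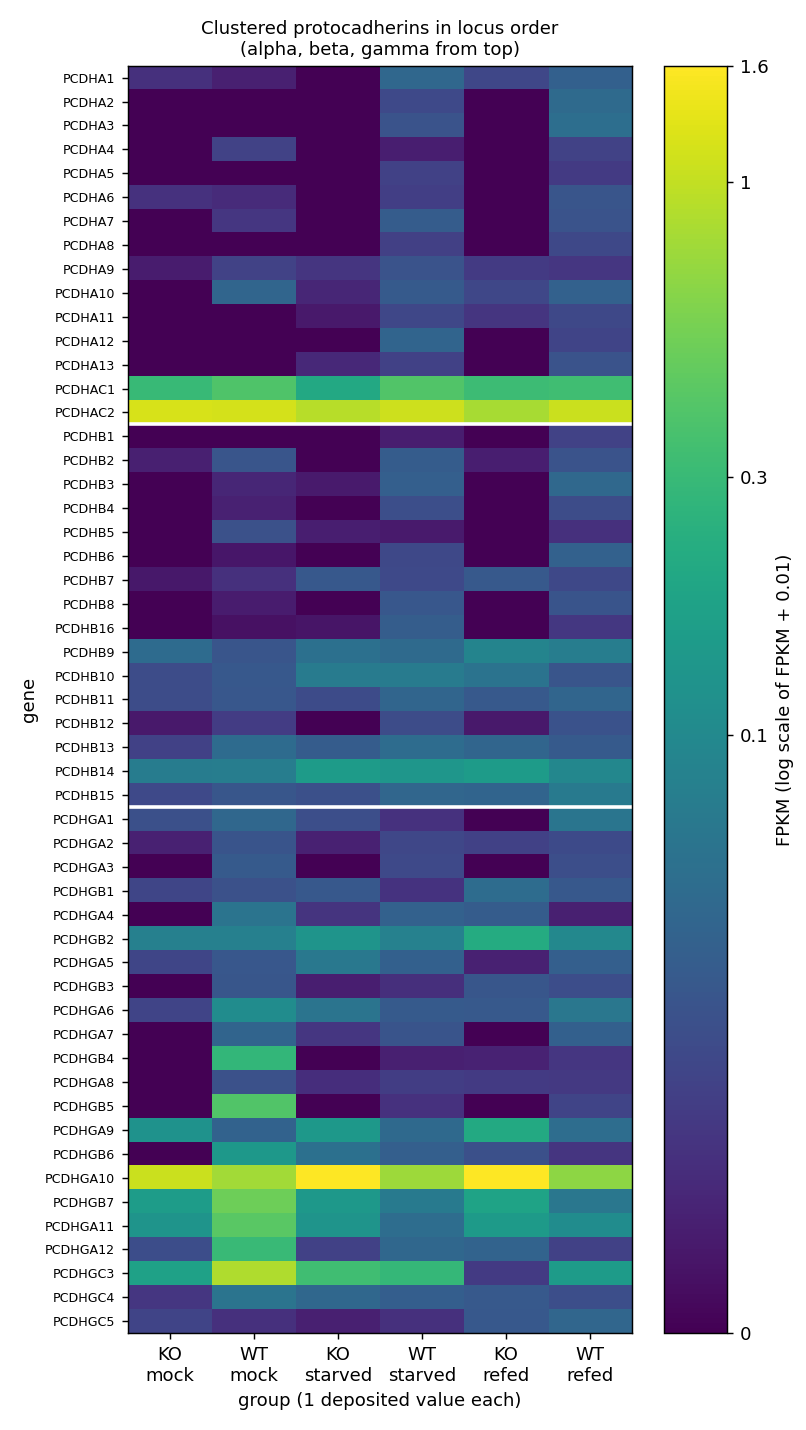
FPKM of the 53 genes (rows, alpha, beta and gamma clusters from top in locus order, white lines between clusters) in the 6 groups (columns, KO left of WT in each state, 1 deposited value each). The colour runs on a log scale of FPKM + 0.01 up to 1.6 FPKM. The bright rows are PCDHAC2 and PCDHGA10, and several gamma rows are bright only in the WT mock column.

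The 2 genes above 1 FPKM were PCDHGA10, a gamma subfamily A isoform, and PCDHAC2, a C-type alpha isoform. PCDHAC2 had 1.17, 0.932 and 0.826 FPKM in mock, starved and refed KO cells, against 1.16, 1.08 and 1.06 FPKM in WT cells. KO was lower than WT in starved and refed cells and almost equal to it in mock cells. PCDHAC2 held 60.2% to 79.7% of the summed alpha level in the 6 groups. PCDHGA10 had 1.06, 1.6 and 1.6 FPKM in mock, starved and refed KO cells, against 0.781, 0.75 and 0.669 FPKM in WT cells, and the KO and WT values did not overlap. PCDHGA10 held 18% to 59.5% of the gamma sum, its lowest share in WT mock. It reached 1 FPKM only through the KO groups, so it entered the test because of the values that are high there. PCDHAC2 at 1.17 FPKM was the member just inside the threshold and PCDHGC3 at 0.876 FPKM the one just outside it.

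On the log2(FPKM + 1) scale PCDHGA10 was higher in KO than in WT by 0.21 in mock, 0.57 in starved and 0.64 in refed cells. None reached 2-fold on that scale, and by plain FPKM ratio the differences were 1.36-, 2.13- and 2.39-fold. In a limma fit with genotype and culture state as additive terms, PCDHGA10 differed between KO and WT by 0.47 (SE 0.12, adjusted p = 0.0471), and PCDHAC2 differed by -0.09 (SE 0.10, adjusted p = 0.481). Since its KO values alone took PCDHGA10 past the filter, the adjusted p is given as a description and not as a rise. It did not stay under 0.05 under median-ratio rescaling (0.38, adjusted p = 0.0755), upper-quartile rescaling (0.36, 0.079) or without the filter (0.47, 0.138). Nor did it without a starved or refed group (0.39 to 0.43, adjusted p 0.197 to 0.24). It did so without both mock groups (0.60, adjusted p = 0.022). Over all 13456 tested features 28.7% rose in KO and 33.3% passed in either direction, and the median difference was 0.158. This p measures how even a difference was over the 3 states, not replicate error, since the fit's 2 residual degrees of freedom are the interaction of genotype and state.

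**Figure D2:**
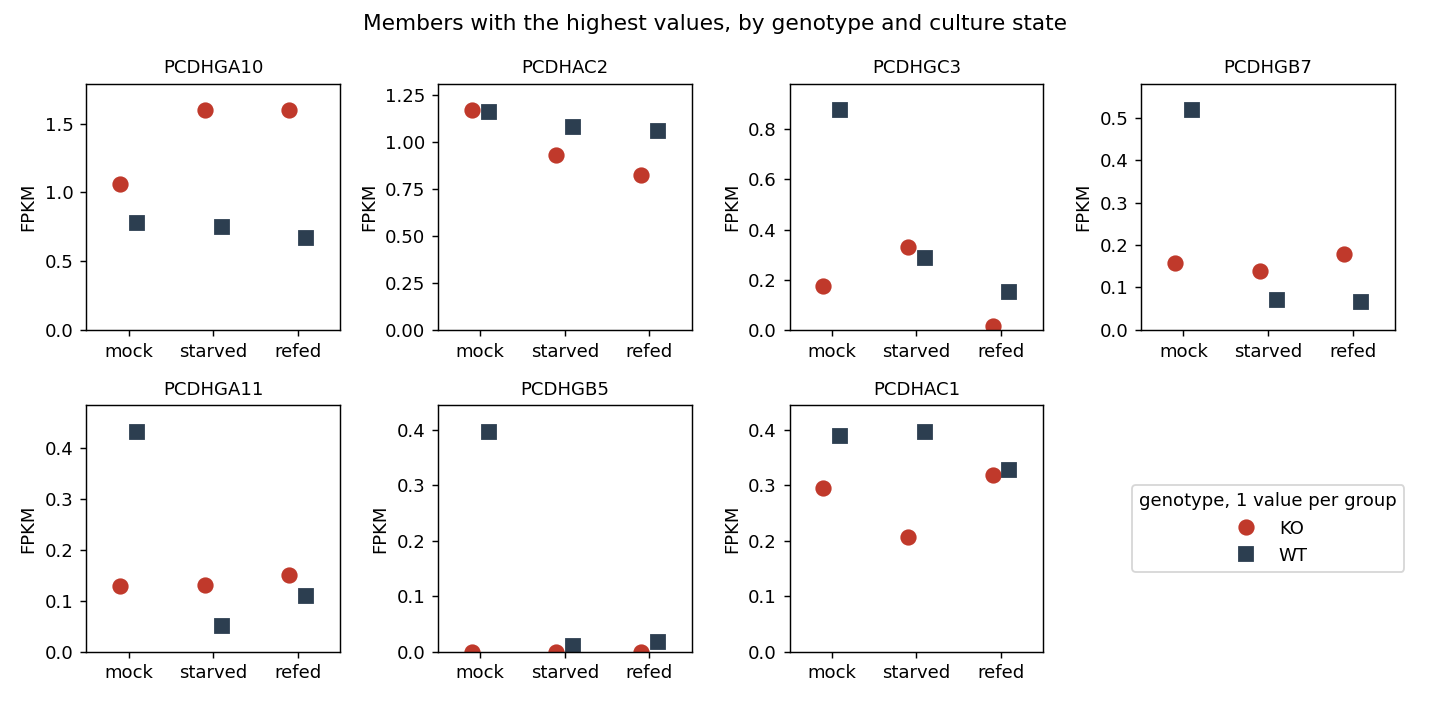
FPKM (vertical axis, own scale from 0 in each panel) of the 7 genes with the highest values, by culture state. Red circles are KO and dark squares WT, 1 deposited value each, with no error bars because each group has 1 deposited column. PCDHGA10 is higher in KO in each state, while PCDHGC3, PCDHGB7, PCDHGA11 and PCDHGB5 stand out in WT mock.

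Of the next 5 genes by highest value, PCDHAC1, the other C-type alpha gene, had 0.295, 0.206 and 0.318 FPKM in mock, starved and refed KO cells, against 0.389, 0.396 and 0.327 FPKM in WT cells. All KO values were below all WT values. PCDHGC3, a C-type gamma gene, had 0.174, 0.332 and 0.0137 FPKM in KO cells, against 0.876, 0.287 and 0.152 FPKM in WT cells, in the same order of states. PCDHGB7, a gamma B isoform, had 0.157, 0.139 and 0.18 FPKM in KO cells, against 0.518, 0.0713 and 0.0646 FPKM in WT cells. The WT mock value was the highest for both, and the KO values of PCDHGB7 were above those of WT in starved and refed cells. PCDHGA11, a gamma A isoform, had 0.128, 0.13 and 0.151 FPKM in KO cells, against 0.431, 0.0512 and 0.109 FPKM in WT cells. PCDHGB5 had no signal listed (0 FPKM) in any KO group and had 0.396, 0.0105 and 0.0181 FPKM in WT cells. These low values come from libraries of unknown depth and have no test.

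Of the 22 gamma genes, 14 had their highest level in WT mock. Summed gamma levels were 1.87, 2.82 and 2.69 FPKM in mock, starved and refed KO cells, against 4.34, 1.66 and 1.59 FPKM in WT cells, so that KO was lower in mock and higher in both other states. Without PCDHGA10 the sums were 0.806, 1.22 and 1.09 FPKM in KO, against 3.56, 0.906 and 0.919 FPKM in WT. WT mock was the highest of the 6 groups for 16 of the 53 genes (30.2%, against 17.6% of all symbols and 12.9% of the 12916 symbols below 1 FPKM in every group), and 14 of these 16 were gamma genes. On FPKM + 0.1, WT mock was at least 2-fold above every other group for 6 genes (11.3%, against 2.24% of all and 2.25% of low symbols): PCDHGA11, PCDHGA12, PCDHGB4, PCDHGB5, PCDHGB7 and PCDHGC3. PCDHGA12 and PCDHGB4, chosen after their values were seen, had 0.0235 and 0 FPKM in KO mock, against 0.304 and 0.28 FPKM in WT mock. The summed level of the 6 genes was 0.483, 0.618 and 0.392 FPKM in mock, starved and refed KO cells, against 2.8, 0.471 and 0.372 FPKM in WT cells. The endothelial marker sum and SNORD81 were highest in that same WT mock column, and their part in the result was not tested.

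**Figure D3:**
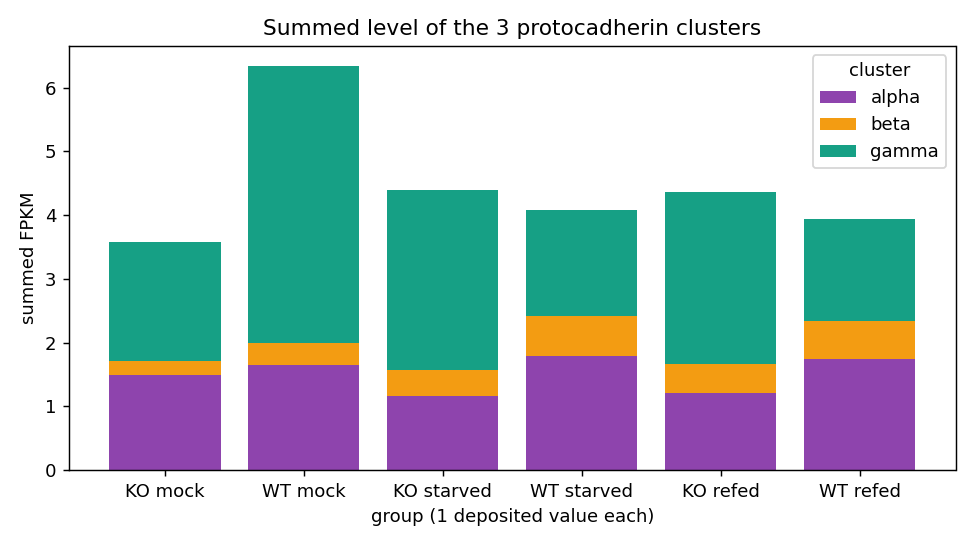
Summed FPKM of the alpha, beta and gamma clusters (stacked bars from 0, 1 deposited value per group, no error bars) in the 6 groups, KO left of WT in each state. The WT mock bar is the tallest at 6.34 FPKM, of which 4.34 FPKM is gamma, in the column that also holds the endothelial markers and SNORD81.

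With a pseudocount of 0.1 and no filter, a setting chosen after the levels were seen, all 53 genes could be compared at 2-fold. On the scale used above, log2(FPKM + 1), 0 of the 2 genes compared passed 2-fold in KO against WT in mock, starved or refed cells, against 5.48%, 4.04% and 4.92% of tested features. With all 53 genes, 7 were at least 2-fold lower in KO mock cells (against 4.73% of all symbols) and 0 higher (2.31%). They were the 6 genes above and PCDHGB6. The 6 had been picked because WT mock was at least 2-fold above every other group, KO mock included, on this scale. Their passing here was thus fixed by that choice, and this comparison shares the WT mock column. In starved cells 0 passed (against 5.12% in either direction). In refed cells PCDHGA10 and PCDHGA9 were higher (3.59%) and PCDHGC3 lower (2.46%). PCDHGA9, named after its values were seen, had 0.123, 0.141 and 0.211 FPKM in mock, starved and refed KO cells, against 0.0398, 0.0466 and 0.0512 FPKM in WT cells. limma without the filter called 0 of 53 genes in KO against WT, with a pseudocount of 1 (3.72% of symbols called) or 0.1 (2.99%), and 13 and 12 of the 53 genes had an unadjusted p under 0.05. Over all symbols 28.7% and 28.4% had one.

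Many of the low members had lower values in KO than in WT. All 3 KO values lay below all 3 WT values for 14 of 53 genes (26.4%), against 9.34% of all symbols and 12.7% of the 12916 symbols below 1 FPKM in every group. Of these, 4 were alpha, 6 beta and 4 gamma genes. The reverse held for PCDHGA10 and PCDHGA9 alone (3.77%, against 14.9% of all symbols). Among the 51 members below 1 FPKM in every group it held for 1 (1.96%, against 3.89% of low symbols). Without the mock groups, both KO values lay below both WT values for 28 genes (52.8%, against 21.6% of all symbols), 14 of them alpha. They lay above for 8 (15.1%, against 36.6% of all symbols), 6 of them gamma. Among the 51 low members the counts were 27 (52.9%, against 32.5% of low symbols) and 7 (13.7%, against 9.04%). Summed alpha levels were 1.49, 1.17 and 1.21 FPKM in mock, starved and refed KO cells, against 1.65, 1.79 and 1.75 FPKM in WT cells. Summed beta levels were 0.22, 0.407 and 0.457 FPKM in mock, starved and refed KO cells, against 0.346, 0.623 and 0.592 FPKM in WT cells. In all 3 states both cluster sums were lower in KO. So was the sum over the 12916 low symbols, with 936, 978 and 961 FPKM in mock, starved and refed KO cells, against 1151, 1057 and 1059 FPKM in WT cells. PCDHB14, the one beta gene above 0.1 FPKM, had 0.075, 0.154 and 0.152 FPKM in KO cells, against 0.0758, 0.134 and 0.0953 FPKM in WT cells. PCDHA1 to PCDHA13 summed to 0.0254, 0.0309 and 0.0648 FPKM in KO cells, against 0.104, 0.317 and 0.36 FPKM in WT cells.

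Many of these values were listed at 0. In mock, starved and refed KO cells 25, 18 and 20 of the 53 genes were at 0 (47.2%, 34% and 37.7%), against 8 (15.1%), 0 and 0 in WT cells. Among the 12916 symbols below 1 FPKM in every group, 54.6%, 53.4% and 53.2% were at 0 in KO cells, against 48.1%, 32% and 31.9% in WT cells, so these symbols also had more zeros in KO. WT starved and WT refed were both above the other 4 groups for 19 genes (35.8%, against 12.8% of all symbols and 22.2% of low ones), 10 alpha, 9 beta and 0 gamma. At 0 in all KO groups and above 0 in both of these WT groups were 13 genes (24.5%, against 6.18% of all and 12.4% of low symbols). PCDHA12, whose window is printed above, had 0 FPKM in all 3 KO groups and in WT mock, 0.0413 FPKM in WT starved and 0.0186 FPKM in WT refed cells.

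**Figure D4:**
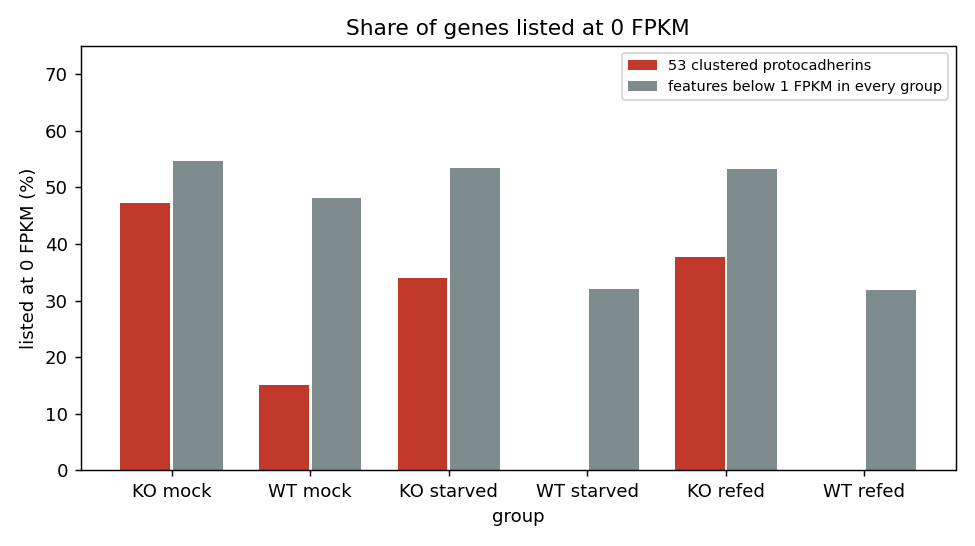
Share (%) of the 53 clustered protocadherins (red) and of the 12916 symbols below 1 FPKM in every group (grey) listed at 0 FPKM in each group, KO left of WT in each state. Members have no zeros in WT starved and WT refed cells, and both sets have more zeros in KO than in WT in every state.

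Neither gene that reached 1 FPKM passed the test between culture states. At 2-fold on log2(FPKM + 1), 0 of 2 genes passed in starved against mock KO cells (2.13% of tested features) or WT cells (4.94%), or in refed against starved KO cells (2.42%) or WT cells (2.38%). In the limma fit, starved against mock gave 0.15 (SE 0.15, adjusted p = 0.476) for PCDHGA10 and -0.11 (SE 0.12, adjusted p = 0.512) for PCDHAC2, while 25.2% of features passed. Refed against starved gave -0.03 (SE 0.15) and -0.05 (SE 0.12), both with an adjusted p of 1, while 0.825% passed. Neither gene had an unadjusted p under 0.05 in these terms (0 of 2 in each). With all 53 genes and a pseudocount of 0.1, 6 were at least 2-fold lower in starved than in mock WT cells (5.34% of symbols). They are the 6 genes that stand out in WT mock, so this comparison shares that column. In starved against mock KO cells 0 passed (3.02%), and in refed against starved WT cells 0 (2.41%). PCDHGC3 was lower in refed than in starved KO cells (0.66%).

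The 4 available promoter windows of the C-type genes were rich in GC and those of most other members were not. PCDHGC5, also C-type, had no window and a median of 0.0142 FPKM. The windows of the family had a median GC of 39.7% (32.3% to 66%), against 58% for all windows. The C-type windows stood at a median of 61.8%, and PCDHA1 to PCDHA13 at 36%. Across 47 genes, Spearman's rho between GC and the median FPKM was 0.33 and Pearson's r on log2(FPKM + 0.01) was 0.51. This is a description across genes that lie in one locus and share exons. PCDHAC1 (66%), PCDHAC2 (63%) and PCDHGC3 (59%) had high GC and levels that were high for this family, with medians of 0.322, 1.07 and 0.231 FPKM. The fourth C-type window, that of PCDHGC4, had 60.7% GC with a median of 0.0335 FPKM, and PCDHGA10, at 38.3%, had a high level with low GC.

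**Figure D5:**
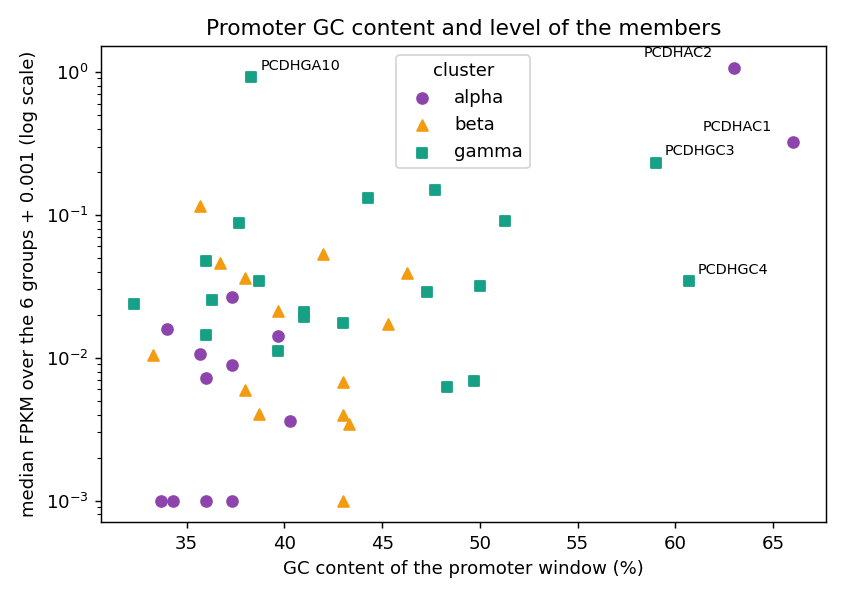
GC content (%) of the promoter window against the median FPKM over the 6 groups (log axis, 0.001 added) for the 47 genes with a window, by cluster. PCDHAC1, PCDHAC2 and PCDHGC3 lie at the right and high, PCDHGC4 lies at the right and low, and PCDHGA10 lies high at 38.3% GC.

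Members of a cluster share exons, which bears on how exactly these values belong to one gene. In GENCODE 29 (GRCh38), all 15 alpha genes shared 45.5% to 54.9% of their transcript length with another alpha gene and all 22 gamma genes 45.6% to 47.6% with another gamma gene, while 0 of 16 beta genes did. How the authors' counting split reads of shared exons is not given, so alpha and gamma levels are uncertain between genes of a cluster.

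Genes that regulate the clusters or work with their proteins were compared as lists, with limma's adjusted p under 0.05 in the genotype term. Over all tested features 28.7% rose and 4.58% fell as deposited, and 12% rose under median-ratio rescaling. The share that fell after rescaling was not counted, so the numbers of listed genes that fell after rescaling have no comparison. Of 12 measured CTCF and cohesin genes 5 rose (28.7% of all features) and 0 fell in KO, with a median difference of 0.181 against 0.158 over all features. RAD21, a cohesin subunit, rose by 0.48 (adjusted p = 0.017), and ZNF143, a factor that binds with CTCF, by 0.46 (0.0177). Under median-ratio rescaling 2 rose (12% of all features). Of 18 repressor genes (DNA methylation, SMCHD1, SETDB1, TRIM28, HUSH and G9a) 2 rose and 0 fell, with a median of 0.101. UHRF1, which guides maintenance DNA methylation, rose by 0.55 (0.014), and DNMT3B, a DNA methyltransferase, by 0.45 (0.0483). The next 2 by size, ATF7IP and DNMT3A, differed by -0.31 (0.127) and -0.20 (0.28). Under median-ratio rescaling 0 rose and 2 fell. Of 23 signalling and processing partners 11 rose (28.7% of all features) and 0 fell, with a median of 0.262. PTK2B, a focal adhesion family kinase, rose by 0.55 (0.012). Rescaled by median ratio, 1 rose (12% of all features) and 2 fell. These lists were chosen with earlier results known.

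Genes beside the locus were also measured. Of 23 measured neighbours 3 rose and 2 fell in KO (28.7% and 4.58% of all features), with a median difference of 0.0851. Under median-ratio rescaling 2 rose (12% of all features) and 6 fell. The share of all features that fell after rescaling was not counted, so the 6 have nothing to be set against. IK, a splicing factor, fell by 0.46 (adjusted p = 0.0181). NDFIP1, a ubiquitin ligase adaptor, had 69.7, 64.1 and 61.2 FPKM in mock, starved and refed KO cells, against 23.2, 19.4 and 18.5 FPKM in WT cells, and rose by 1.63 (SE 0.06, adjusted p = 0.00219). GNPDA1, a glucosamine-6-phosphate deaminase, had 42.2, 42.8 and 41 FPKM in KO cells, against 17.3, 17.9 and 16.4 FPKM in WT cells, and rose by 1.24 (0.0023). Both lie after the gamma cluster and were the farthest from it of the genes listed on that side. The nearest listed there, DIAPH1 and HDAC3, differed by 0.20 (adjusted p = 0.0844) and 0.21 (0.055). ZMAT2, the nearest listed before the alpha cluster, rose by 0.36 (0.0388). Among the 3 measured non-clustered protocadherins PCDH1, which lies nearby, rose by 1.19 (SE 0.10, adjusted p = 0.0054), with 30.7, 21.8 and 26.2 FPKM in KO cells and 14.8, 9.4 and 9.09 FPKM in WT cells. PCDH7 fell by 0.59 (adjusted p = 0.00631), and PCDH10, at 1 FPKM or more only in WT mock, differed by -0.49 (adjusted p = 0.224). Of the 15 non-clustered protocadherins listed, 5, 5 and 6 were at 0 in mock, starved and refed KO cells, against 1, 1 and 0 in WT cells. All KO values lay below all WT values for PCDH7, PCDH8, PCDH9, PCDH10, PCDH11Y, PCDH15, PCDH17 and PCDH18. The reverse held for PCDH1, and the rest overlapped. KO values lay below in this way for 9.34% of all symbols and 12.7% of those below 1 FPKM in every group. They lay above for 14.9% and 3.89%. Lower KO values were thus not particular to the clustered genes. TAF7, named for its place between the beta and gamma clusters, differed by 0.33 (adjusted p = 0.056).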

How the data were processed

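Per the submitters' processing notes, reads were trimmed with cutadapt, checked with FastQC and aligned to hg19 with TopHat2, with no versions. The program and annotation behind the FPKM values are not given in the sources used here. The authors deposited FPKM per gene symbol in 6 tables, 1 per group, with no replicate number. Library depth is therefore unknown, and values carry no counting interval. Differences were taken as log2(FPKM + 1) over the 13456 symbols that reached 1 FPKM in some group. Differences of at least 2-fold were counted without a test. limma 3.58.1 (R 4.3.3) fitted genotype and state as additive terms with a variance trend. Benjamini-Hochberg adjustment ran over the 13456 features, with a threshold of 0.05. The fit was run on simulated data with independent noise and shifts added to the KO groups. Those data had no interaction of genotype and state, so that run does not bear on the p-values given here. Tables were handled in Python 3.11.15 (pandas 2.3.3, numpy 2.4.6) and drawn with matplotlib 3.10.9. "Rose" and "fell" are used of calls that passed. Members reaching 1 FPKM in some group were named, then the next 5 by highest value, and up to 4 genes of each list by size of the difference. Alternatives were the pseudocount, the filter, 2 rescalings, short RNA features left out, and each group left out. The gene rule and lists were chosen with earlier results of these data known. Neighbour order, exons and promoter sequences came from GRCh38 by symbol, and no coordinate was mixed with hg19.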

Additional observations from a re-analysis of the deposited data

Results flagged for a closer look

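The deposited values of PCDHGA10 differed in opposite directions between culture states in KO and WT. Starved minus mock was 0.33 on the log2(FPKM + 1) scale in KO cells and -0.025 in WT cells, and refed minus starved was 0.002 in KO cells and -0.068 in WT cells. The opposite signs were not seen after rescaling: starved minus mock was 0.36 in KO and 0.07 in WT under both rescalings, and refed minus starved was -0.01 in KO and -0.06 in WT by median ratio and -0.04 in KO and -0.08 in WT by upper quartile. For PCDHAC2, KO minus WT was 0.0067 in mock cells, -0.1 in starved cells and -0.18 in refed cells. The mock value was -0.04 by median ratio and -0.05 by upper quartile, the same sign as in the other states. These differences were not tested, since each group has 1 value.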

How the results depend on the processing

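No paired analysis was possible because the deposited columns carry no replicate number. The filter at 5 FPKM left no members and gave no value. The count of members with an adjusted p under 0.05 in KO against WT by limma was 1 as deposited (PCDHGA10) and 0 under median-ratio rescaling, upper-quartile rescaling, no filter and no filter with a pseudocount of 0.1; leaving out each group in turn gave 0 to 1. At 2-fold, with a pseudocount of 0.1 and the filter kept, 1 of 2 members, PCDHGA10 (1.14), passed in refed KO against WT cells. PCDHGA10 passed the filter only through its KO values, and the share of all features was not counted for this setting. With that pseudocount and no filter, 7 passed in mock and 3 in refed KO against WT cells, 6 in starved against mock WT cells and 1 in refed against starved KO cells. Summed gamma levels without PCDHGA10 were 0.806, 1.22 and 1.09 FPKM in mock, starved and refed KO cells, and 0.906 and 0.919 FPKM in WT starved and refed cells. The sign turned in 4 averaged values, none past the threshold: PCDHGA10 starved against mock without KO mock (-0.04), PCDHGA10 refed against starved without KO starved (0.04) or without WT refed (0.09), and PCDHAC2 refed against starved without KO refed (0.02). Among untested single-state differences, PCDHAC2 starved against mock in WT was -0.05 as deposited and 0.06 under both rescalings, and the others that turned with rescaling are given above. The cause was not tested. The gamma sums without PCDHGA10, the setting with a pseudocount of 0.1 and no filter, and the counts of non-overlapping members without mock groups or after rescaling were chosen after the values were seen. Members with all KO values below all WT values numbered 18 after median-ratio rescaling (34%, against 14.5% of all symbols) and 20 after upper-quartile rescaling (37.7%, against 15.3%). Unknown depth limits every value below 1 FPKM.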
